A study of Homo sapiens with 6 samples.

Results

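The genes described here encode assembly factors of the large (60S) ribosomal subunit, that is, the proteins that fold, cut, modify and export its precursor without staying in the finished ribosome. They were taken as a list of 55 gene symbols, and each symbol was looked up by its exact name in the deposited RNA-seq table; where several loci carried a symbol, the locus with the highest mean level was kept. The difference between the groups was not part of this rule. The list, and the lists set beside it below, were however chosen with earlier results of these data known. In all, 54 of the 55 symbols were found among the 27678 named loci. The symbol not found, MKI67IP, is given by RefSeq as an older name of NIFK, which is described among the other factors.

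The cells were MCF10A, an established human cell line from breast epithelium, grown in medium with horse serum, epidermal growth factor, hydrocortisone, cholera toxin and insulin. Cells were transfected for 72 hours with 30 nM of either a pool of siRNAs against PAX9 (siPAX9), a paired-box transcription factor, or a non-targeting siRNA control (siNT), with 3 samples in each group. The study asked which mRNAs depend on PAX9, and the comparison for the assembly factors is siPAX9 against siNT. The authors' table gives 1 value per group and locus in FPKM (fragments assigned to a locus, divided by its transcript length in kilobases and by library size), with the 3 samples already combined, so no replicate error could be computed from these values and no difference was tested here; whether the 3 samples were separate cultures is not stated in the labels.

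The large subunit is assembled in the nucleolus, where RNA polymerase I makes a long precursor that holds the rRNAs of both subunits. RNA helicases, GTPases and AAA-type ATPases remodel the pre-60S particle in order, nucleases remove the internal transcribed spacers, methyltransferases mark the rRNA, and placeholder proteins keep the sites of ribosomal proteins that join late. The particle is then handed to export factors and finished in the cytoplasm, and cells that grow and divide need this pathway most.

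The targeted gene, PAX9 (chr14:37126773-37642998, hg19), was measured at 2.80 FPKM in siNT and at 0.325 FPKM in siPAX9, which was 11.6% of the control level. All 10 breast epithelial markers were detected, a list of basal markers with the general epithelial genes EPCAM and CDH1. Among them were KRT17 at 1718 and 2088, KRT5 at 1558 and 1807, KRT6A at 368 and 959 and LAMB3 at 139 and 124 FPKM in siNT and siPAX9. Of the 10, 3 were lower in siPAX9 and 7 higher, with EPCAM (34.3 and 16.7) at least 2-fold lower and CDH1 (45.3 and 124) and KRT6A at least 2-fold higher; TP63 had 35.4 and 25.3. Of 12 markers of other cell types, 4 had a mean FPKM of at least 1 (CD14 at 14.4 and 56.5, DCN at 5.85 and 37.9, COL1A1 at 0.454 and 4.13, PECAM1 at 2.58 and 0.495), their 12 values summed to 23.5 and 99.6, and CD3E was listed at 0 in both groups. All 16 proliferation markers were lower in siPAX9, 11 of them (68.8%) at least 2-fold, with a summed FPKM of 365 and 147. Of the 12595 named loci with a mean FPKM of at least 1, 55.2% were lower and 6.91% at least 2-fold lower. Of 10 markers of squamous differentiation, the 7 with a mean FPKM of at least 1 were all higher in siPAX9, and the 10 summed to 35.6 and 666. These shifts moved together with the assembly factors below, and their part in the result was not tested. In bulk RNA, fewer cells of a type and less RNA per cell cannot be told apart.

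The assembly factors were mostly somewhat lower after PAX9 depletion, and few were much lower. Of the 54 genes, 49 had a lower FPKM in siPAX9 than in siNT and 5 a higher one. The median log2 change (log2 of siPAX9 FPKM over siNT FPKM) was -0.39, with quartiles of -0.50 and -0.11. Over the 12595 named loci with a mean FPKM of at least 1, the median was -0.07, the quartiles were -0.41 and 0.28, and 55.2% were lower in siPAX9. The assembly factors thus lay to the lower side of the transcriptome as a group, within a narrow range. The share lower in siPAX9 was 90.7% of the assembly factors and 59.6% of the 7641 named loci whose mean FPKM fell within the assembly factors' own range of 7.41 to 644, where the median change was -0.11. After centring on the median of all named loci, 45 of the 54 were below it, and DDX31, EBNA1BP2, RRP1B and SDAD1 moved to the higher side.

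The size of the changes was less distinct. At least 2-fold lower were 3 of the 54 genes (5.56%), beside 6.91% of all named loci and 5.22% of those in the same range of level. None was at least 2-fold higher, where all named loci had 6.75% and those in the same range 3.90%. At least 1.5-fold lower were 9 assembly factors (16.7%), beside 16.7% of all named loci and 16.0% of those in the same range. None was at least 1.5-fold higher, beside 13.5% and 8.87%. Of the 9, 6 were among 14 genes with closely similar unnamed loci, described below, and 3 were among the other 40. Over all 54 genes the shares past either fold on the lower side were close to the background, and the group differed from it in direction and in the lack of large increases. These shares describe 1 pair of pooled values and carry no test.

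**Figure D1:**
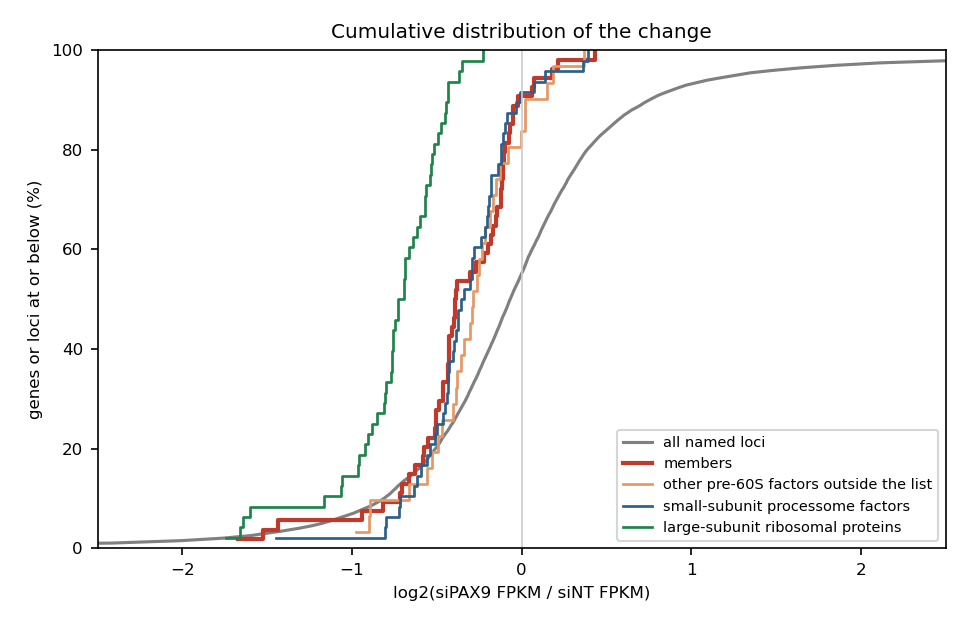
Cumulative share (vertical axis, percent of genes or loci) of the log2 ratio of siPAX9 FPKM to siNT FPKM (horizontal axis, from -2.5 to 2.5), for all 12595 named loci with a mean FPKM of at least 1, the 54 assembly factors, 31 other pre-60S factors, 48 small-subunit assembly factors (named processome factors in the key) and 48 large-subunit ribosomal proteins. The assembly factors lie close to the grey curve below about -0.6 and run above it from there on, with 90.7% of them below 0 against 55.2% of all named loci.

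The 3 genes past 2-fold belong to different steps. RSL24D1 (chr15:55473512-55489231, hg19) encodes a protein that resembles ribosomal protein eL24 and holds its place on the particle until the cytoplasm, and it was at 135.0 FPKM in siNT and 42.3 FPKM in siPAX9, a log2 change of -1.67. NLE1 (chr17:33458341-33469334) encodes the factor that the ATPase MDN1 pulls off the particle, and it had 12.4 and 4.31 FPKM, a log2 change of -1.53. NPM1 (chr5:170814708-170837888) encodes nucleophosmin, an abundant protein of the granular outer layer of the nucleolus, and it had 941 and 347 FPKM, a log2 change of -1.44. In each of the 3 the siPAX9 level was 31.3% to 36.9% of the control level. The gene just short of the fold was PES1 (chr22:30972611-31003000) at 52.4 and 27.3 FPKM, a log2 change of -0.94, and NPM1 was the gene just past it.

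Levels differed widely between the genes. The median FPKM was 25.2 in siNT (7.84 to 941) and 20.2 in siPAX9 (4.31 to 347). NPM1 was highest by mean FPKM, followed by the locus of SENP3 (526 and 322), NCL (418 and 295), DDX21 (125 and 95.7) and RSL24D1. At the other end were DDX51 (7.84 and 6.98), DDX31 (8.03 and 7.91), RPF2 (10.2 and 6.19), NLE1 and NOL9 (10.1 and 8.16). The 48 assembly factors whose locus carries no other gene summed to 2365 FPKM in siNT and 1412 in siPAX9, a log2 change of -0.74, and NPM1 made up 39.8% of the first sum and 24.6% of the second. Without NPM1 the sums were 1424 and 1065, a log2 change of -0.42. The summed level was thus carried in large part by 1 gene, while the median over genes was not.

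**Figure D2:**
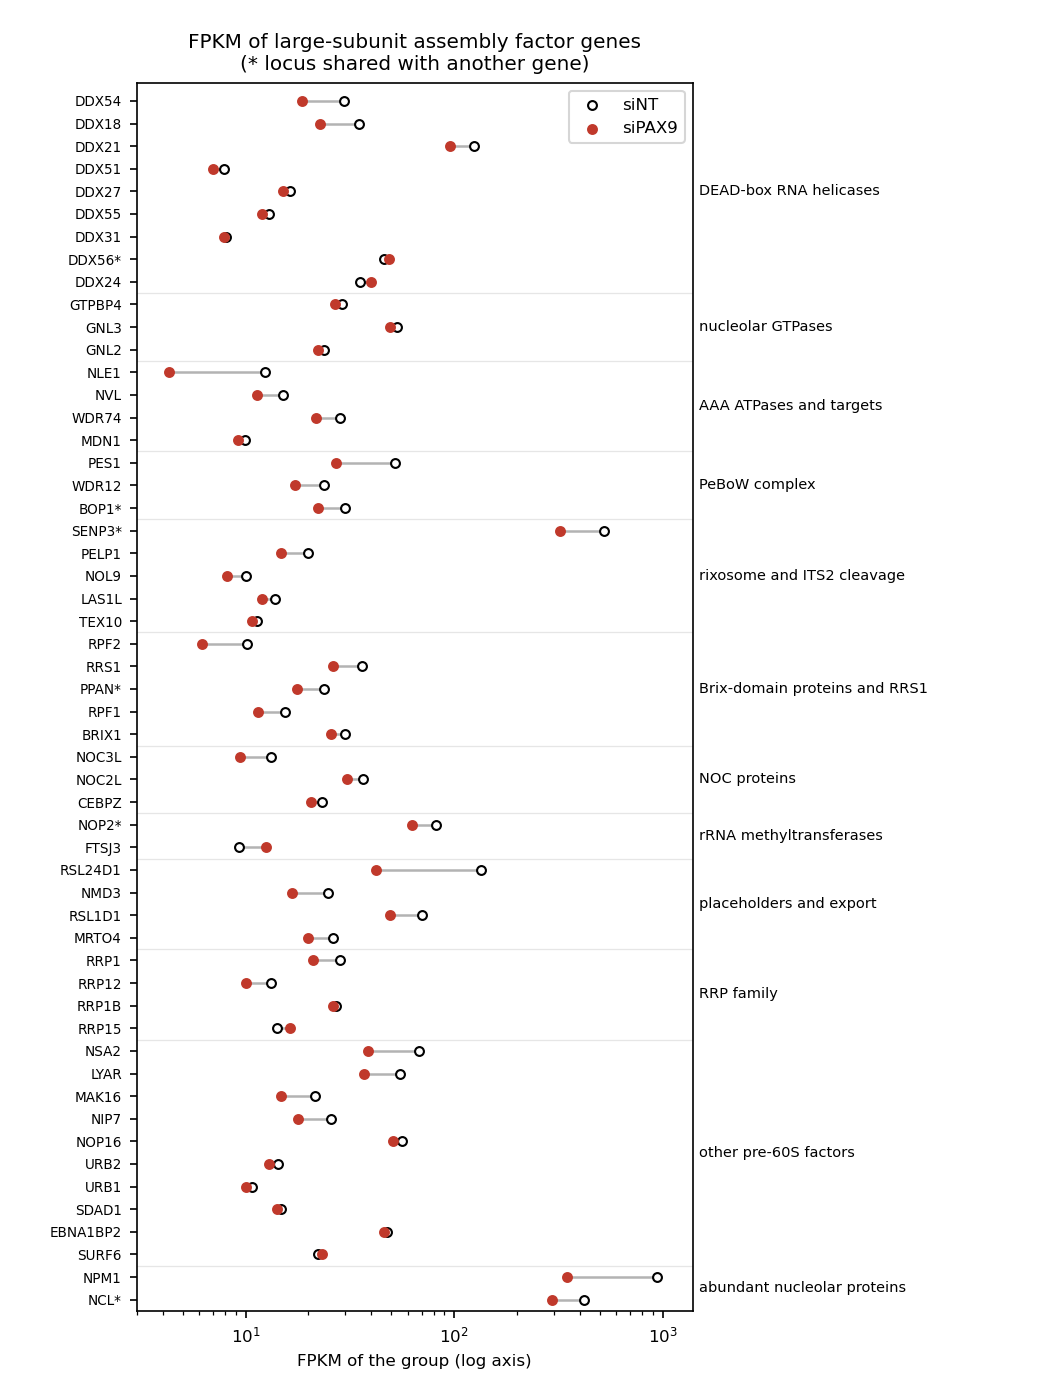
FPKM of the 54 assembly factor genes on a log axis, with siNT as open and siPAX9 as filled circles joined by a line, 1 row per gene, ordered by role and within a role by change. RSL24D1, NLE1, NPM1 and PES1 have the longest lines toward lower siPAX9 values, and FTSJ3 at 9.29 and 12.5 has the longest toward higher values; an asterisk marks a locus that carries another gene.

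Nucleophosmin and nucleolin are the most abundant proteins in the list and serve as chaperones and RNA-binding scaffolds of the nucleolus. NCL, which encodes nucleolin, had a log2 change of -0.50, against -1.44 for NPM1. The NCL locus also carries the small nucleolar RNA gene SNORD82, so its FPKM is that of the locus.

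Among the proteins that take the place of ribosomal proteins or prepare export, the level of all 4 genes was lower in siPAX9, and their median log2 change was -0.54. NMD3, the adaptor through which the export receptor binds the particle, had 24.8 FPKM in siNT and 16.6 in siPAX9 (-0.57). MRTO4, which holds the site of the stalk protein uL10, had 26.1 and 19.9 (-0.39). RSL1D1, a nucleolar protein with a domain like that of ribosomal protein uL1, had 70.1 and 49.4 (-0.50). Apart from RSL24D1, the genes of this role thus lay between -0.57 and -0.39 on the log2 scale. Ribosomal protein eL24 itself, encoded by RPL24, had 609 and 448 FPKM, a log2 change of -0.44, beside -1.67 for its placeholder RSL24D1.

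The PeBoW complex (PES1, BOP1 and WDR12) is needed to process the second internal transcribed spacer, ITS2. All 3 of its genes were lower in siPAX9. PES1 had the largest change of them, WDR12 had 23.8 and 17.2 FPKM (-0.46), and BOP1 had 29.9 and 22.2 (-0.43) at a locus it shares with MIR7112. In siNT the level of PES1 was about that of WDR12 and BOP1 added together, and in siPAX9 it was closer to theirs.

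The AAA-type ATPases strip factors from the maturing particle. MDN1, the very large ATPase that acts on NLE1, had 9.93 and 9.22 FPKM (-0.11), beside -1.53 for NLE1, so the factor changed by much more than the ATPase that removes it. NVL, the second ATPase, had 15.0 and 11.3 (-0.41), and its partner WDR74, which it releases, had 28.5 and 21.9 (-0.38). The changes of NVL and WDR74 were thus of similar size.

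The rixosome joins PELP1, TEX10, LAS1L and the SUMO protease SENP3, and with the kinase NOL9 it cuts and trims ITS2. All 5 genes were lower in siPAX9. PELP1, a scaffold, had 19.9 and 14.7 FPKM (-0.43), and the polynucleotide kinase NOL9 had a log2 change of -0.30. LAS1L, the endonuclease that makes the cut, had 13.8 and 12.0 (-0.20), and TEX10 had 11.3 and 10.8 (-0.08). The locus of SENP3 gave a log2 change of -0.71, but it also carries EIF4A1, the readthrough gene SENP3-EIF4A1 and SNORA67. EIF4A1 encodes an abundant translation initiation factor, and the locus value cannot be divided between them. The nuclease and kinase genes of ITS2 cleavage were thus less changed than PES1.

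Proteins with a Brix domain bind the rRNA early, and RPF2 with RRS1 brings the 5S rRNA particle. RPF2 had a log2 change of -0.72, and its partner RRS1 had 36.1 and 26.2 FPKM (-0.47). RPF1 had 15.5 and 11.5 (-0.43), PPAN had 23.7 and 17.6 (-0.43) at a locus with P2RY11, and BRIX1 had 30.1 and 25.8 (-0.22). All 5 were lower in siPAX9, with a median of -0.43. The 3 NOC proteins, which join early particles and accompany them through the nucleolus, were lower as well. NOC3L had 13.3 and 9.44 FPKM (-0.49), NOC2L had 36.8 and 30.5 (-0.27), and CEBPZ had 23.2 and 20.5 (-0.18).

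GTPases, which time assembly steps, and RNA helicases were among the least changed roles. The 3 nucleolar GTPases lay within a range of -0.12 to -0.10, with GTPBP4 at 29.1 and 26.8 FPKM, GNL3 (nucleostemin) at 53.1 and 49.1 and GNL2 at 23.9 and 22.3. Of the 9 DEAD-box RNA helicases, which unwind rRNA and snoRNA helices, 7 were lower and 2 higher in siPAX9, with a median of -0.12. DDX54, at 29.6 and 18.7 FPKM (-0.66), and DDX18, at 35.2 and 22.7 (-0.63), were the only helicases at least 1.5-fold lower. DDX21 had a log2 change of -0.39, and DDX51, DDX27, DDX55 and DDX31 lay between -0.17 and -0.02. DDX56, at a locus with TMED4, had 46.2 and 48.7 FPKM (0.07), and DDX24 had 35.5 and 40.1 (0.18). The helicases therefore did not move as 1 block.

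The 2 rRNA methyltransferases lay on opposite sides of 0. NOP2, which makes 5-methylcytosine in the large-subunit rRNA, had 82.3 FPKM in siNT and 62.7 in siPAX9 (-0.39) at a locus that also carries CHD4, the gene of a chromatin remodeler. FTSJ3, which methylates ribose in the pre-rRNA, had 9.29 and 12.5 (0.43), the highest change of all 54 genes. Of the 4 RRP genes, RRP1 had 28.3 and 21.1 FPKM (-0.43), RRP12, an export factor, had 13.2 and 10.1 (-0.40) and RRP1B, the paralog of RRP1, had 27.2 and 26.2 (-0.05). RRP15 had 14.1 and 16.4 (0.21). The fifth gene higher in siPAX9 was SURF6, a nucleolar RNA-binding protein, at 22.3 and 23.2 (0.06). All 5 higher genes were less than 1.5-fold higher.

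The remaining pre-60S factors, 10 genes with SURF6, had a median log2 change of -0.15, and 9 of them were lower in siPAX9. NSA2, a factor of the nuclear pre-60S particle, had 68.2 and 38.8 FPKM (-0.81). LYAR had 55.1 and 36.9 (-0.58), MAK16 had 21.7 and 14.8 (-0.55), and NIP7, which binds pre-rRNA, had 25.6 and 17.9 (-0.51). These 4 stood apart from the other 6, which lay between -0.15 and 0.06. Those were NOP16 (56.5 and 50.9), URB2 (14.3 and 12.9), URB1 (10.8 and 10.1), SDAD1 (14.8 and 14.1), EBNA1BP2 (47.8 and 46.1) and SURF6.

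**Figure D3:**
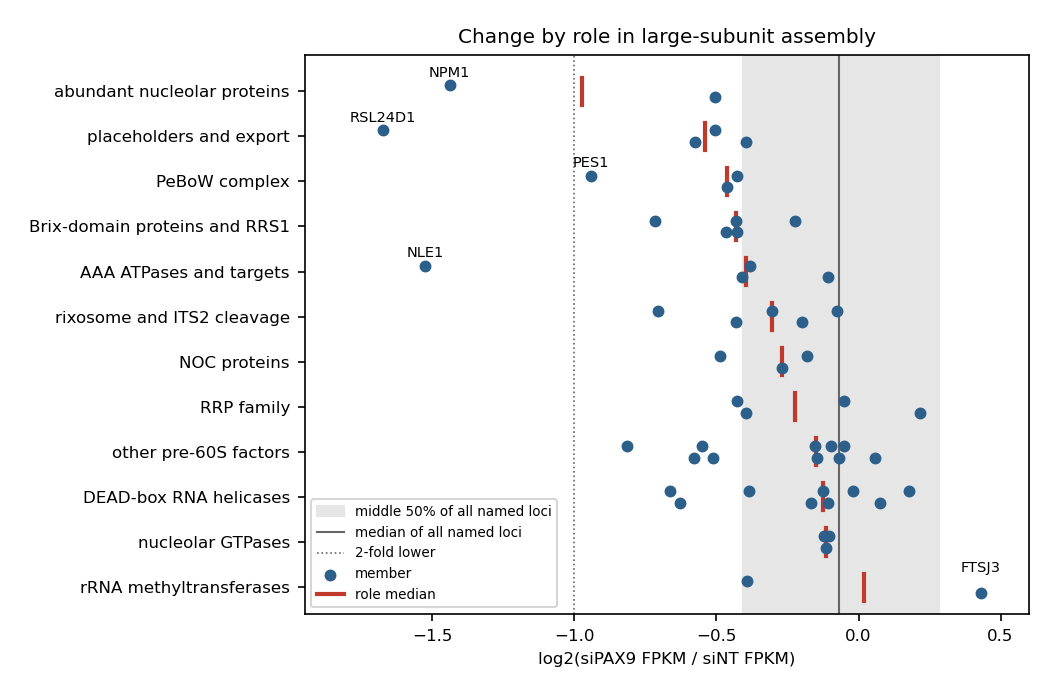
Log2 ratio of siPAX9 to siNT FPKM (horizontal axis) for each of the 54 assembly factor genes, grouped by role (vertical axis), with a red bar at each role's median, a grey line at the median of all named loci (-0.07), a grey band over their middle 50% (-0.41 to 0.28) and a dotted line at 2-fold lower. Points left of the dotted line are RSL24D1, NLE1 and NPM1; the GTPases and most helicases lie inside the band.

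Genes that act beside the 54 were read in the same way. Of 33 other pre-60S factors, 31 were found, 26 were lower in siPAX9, the median log2 change was -0.29, and none was at least 2-fold lower, beside 6.91% of all named loci. Their range ran from GLTSCR2, at 91.7 and 46.6 FPKM (-0.98), to ISG20L2, at 20.0 and 25.8 (0.37), and 4 (12.9%) were at least 1.5-fold lower, beside 16.7% of all named loci. WDR18, the rixosome member outside the list of 54, had 34.2 and 18.4 (-0.90), which was lower in change than PELP1, TEX10 and LAS1L. NIFK, the current name of the symbol not found, had 46.8 and 32.5 (-0.53). EIF6, which keeps the subunits apart, had 75.3 and 83.5 (0.15), and SBDS, which helps to remove EIF6 in the cytoplasm, had 47.2 and 47.1.

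Factors that assemble the other subunit, those of the small-subunit processome together with later ones such as NOB1, had nearly the same distribution. Of 51 listed, 48 were found, 44 were lower in siPAX9, the median was -0.35, 1 (NOB1, at 87.7 and 32.1 FPKM) was at least 2-fold lower (2.08%, beside 6.91% of all named loci) and 8 were at least 1.5-fold lower (16.7%, the same as all named loci). The large-subunit ribosomal proteins had a larger shift than the factors that assemble them. All 48 found of 49 were lower, the median was -0.71, 7 (14.6%) were at least 2-fold lower and 32 (66.7%) at least 1.5-fold lower. On these counts the direction was shared by the assembly factors of both subunits, and the size of the change was greater for the ribosomal proteins. No test was made of the differences between these lists.

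Transcripts of ribosomal and nucleolar proteins have many processed copies in the genome, and reads from the gene and from a copy can be hard to tell apart. The table holds 13978 loci without a symbol, of which 12972 were no longer than 2000 bases and were compared with the coding sequences of 53 assembly factors. In all, 52 of them matched 14 assembly factors over at least 80% of the locus at an identity of at least 90%. Of these 52 loci, 49 (94.2%) were lower in siPAX9, against 49.1% of the 8765 short loci without a symbol that had a mean FPKM of at least 1, whose median log2 change was 0.01. Some of the 52 lie close together and match the same gene, such as the 3 like NOC2L within chr2:130986936-130989152 (hg19). They may be pieces of 1 copy, so the 52 are not that many separate copies.

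NPM1 had the most matching loci, with 15, at 94.6% to 98.7% identity. All 15 were lower in siPAX9, 13 of them at least 2-fold, with log2 changes from -2.41 to -0.55 and a median of -1.32, beside -1.44 at the gene itself. RSL24D1 had 6 matching loci, all lower and 5 at least 2-fold lower, with a median of -1.31. The share of all short loci without a symbol that were at least 2-fold lower was not computed, so these counts have no background. The 4 loci like PES1 had a median of -0.85, the 5 like DDX18 of -0.49 and the 4 like NMD3 of -0.45, all lower. Of 4 loci like NSA2, 3 were lower. Of 3 loci like NOC2L, 2 were lower, and the 3 like MRTO4 had a median of -0.10 beside -0.39 at the gene. The locus like SURF6, 122 bases on chromosome Y at 90.8% identity, had a log2 change of -0.65 beside 0.06 at the gene. Whether its reads came from that chromosome was not tested. The locus like SDAD1 had 0.11 beside -0.07. The loci like SURF6 and SDAD1 thus went the other way from their genes, and NPM1 and RSL24D1 supplied many of the lower loci. How reads were divided between a gene and its copies was not tested.

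How close these copies are can be seen from NPM1 and a locus without a symbol on another chromosome. The stretch shown is bases 180 to 321 of the 882-base NPM1 coding sequence and its match at chr7:36858737-36858878 (GRCh37, plus strand), both read 5′ to 3′, with capitals at the 3 mismatched bases among 142.
NPM1 coding sequence: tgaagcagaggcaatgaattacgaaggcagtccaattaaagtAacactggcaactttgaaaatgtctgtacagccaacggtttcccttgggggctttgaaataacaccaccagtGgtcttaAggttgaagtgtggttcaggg
locus on chromosome 7: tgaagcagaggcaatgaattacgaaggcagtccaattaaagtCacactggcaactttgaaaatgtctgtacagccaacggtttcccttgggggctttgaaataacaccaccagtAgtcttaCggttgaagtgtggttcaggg
The locus had 3050 FPKM in siNT and 1118 in siPAX9, a log2 change of -1.45, beside -1.44 at NPM1. Levels at loci this short cannot be set beside that of a whole gene as amounts of RNA, so only the changes are compared.

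The 14 assembly factors with at least 1 such locus had a median log2 change of -0.54, and the other 40, among them BOP1, which was not searched, had -0.26. Lower in siPAX9 were 13 of the 14 (92.9%) and 36 of the 40 (90%), beside 55.2% of all named loci. Past 2-fold were RSL24D1 and NPM1 among the 14, and NLE1 among the 40, beside 6.91% of all named loci. NLE1 was thus the only gene at least 2-fold lower that had no matching locus in this search.

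**Figure D4:**
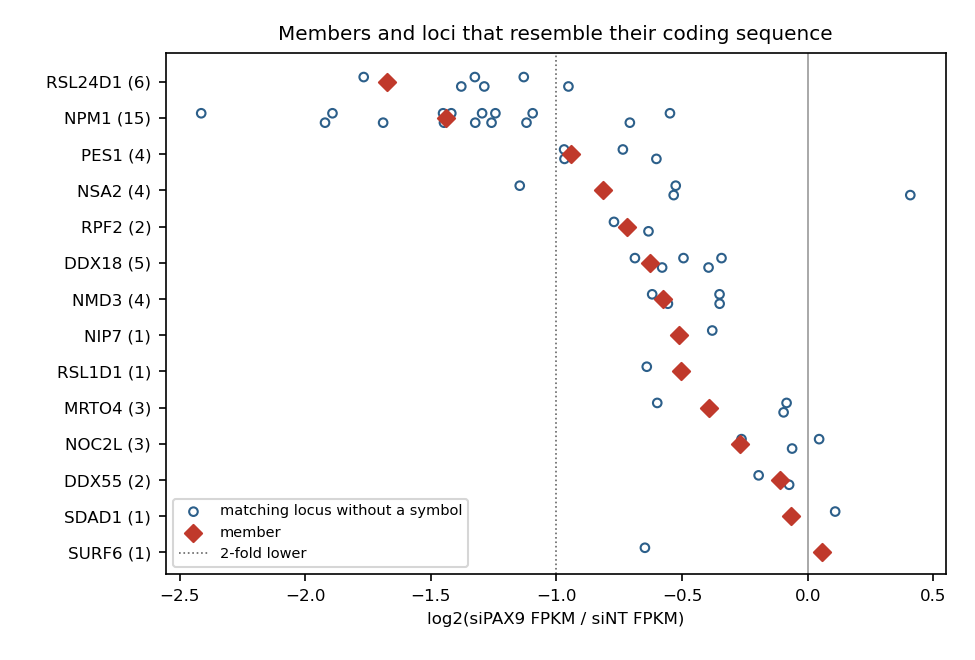
Log2 ratio of siPAX9 to siNT FPKM for the 14 assembly factors with matching loci (red diamonds) and for each of the 52 loci without a symbol that resemble them (open circles), with the number of loci in parentheses after the gene's name and a dotted line at 2-fold lower. The 15 loci like NPM1 spread from -2.41 to -0.55 around the gene's own -1.44, and the 3 loci above 0 resemble NSA2, NOC2L and SDAD1.

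Other properties of the genes followed the changes only loosely. Across the 54 assembly factors, which share the same libraries, Spearman's rho of the log2 change was -0.26 with mean FPKM, and across 11846 named loci of 1 symbol it was -0.16. With transcript length, rho was 0.15 over 53 assembly factors and 0.12 over 10828 loci, and with GC content it was 0.13 and 0.05. For the assembly factors the signs were those of all loci.

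The start sites of the genes were read for short motifs, because genes of ribosome assembly are known targets of MYC, which binds the E-box CACGTG, and because ETS factors bind the core CCGGAAG, which is common near start sites. The third motif, CGTGACC, is a run of letters found in some, but not all, of the binding sequences that the study lists for PAX9. RefSeq windows of 300 bases (250 before and 50 after the start, GRCh38.p14) were at hand for 45 of the 54 genes, and both strands were searched for exact matches. The E-box and the PAX9 run can share letters, and such overlaps were counted for both. The E-box was present in the windows of 14 genes (31.1%), beside 7.43% of all 27305 windows and 10.3% of the 9480 windows of genes with a mean FPKM of at least 1. The ETS core was present in 19 (42.2%), beside 10.7% and 20.0%. The PAX9 run was present in 3 (6.67%), DDX54, LAS1L and URB1, beside 3.32% and 5.14%.

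The E-box is shown for the 7 genes that hold it and changed by more than the list's median, and for SURF6, which was higher in siPAX9. Each stretch has 28 bases on the gene's strand (GRCh38.p14), with the E-box in capitals.
NLE1, chr17:35142275-35142302, minus strand: tctttctcctcCACGTGgggacgcagga
PES1, chr22:30591881-30591908, minus strand: ccttggcagggCACGTGcgggaggaagt
DDX54, chr12:113185523-113185550, minus strand: tcagcggaggtCACGTGgtcaccgcacc
NOC3L, chr10:94362904-94362931, minus strand: agggacttcggCACGTGtgtcattcccc
PELP1, chr17:4704360-4704387, minus strand: gtccggacCACGTGtacctttaacatca
MRTO4, chr1:19251808-19251835, plus strand: gtcttccgccgCACGTGgattcagcgcg
NOP2, chr12:6568242-6568269, minus strand: taggtccggattgCACGTGgagggccgc
SURF6, chr9:133336396-133336423, minus strand: gagcacaggaaCACGTGcgggaccgggg
Of the 14 genes with an E-box, 7 have the match nearest to the start after it, and in 10 that match lies within 100 bases of the start. NLE1 and PES1, the most changed genes among them, hold it just past the start.

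The changes of genes with and without a motif were set side by side, without a test. The median log2 change was -0.25 for the 14 genes with an E-box and -0.30 for the 31 without. For the ETS core it was -0.22 with and -0.40 without, and for the PAX9 run -0.20 in the 3 genes with it and -0.34 without. The start sites of the most changed gene and of the most abundant one are shown as the 250 bases before the start on the gene's strand (GRCh38.p14), with a motif match in capitals.
RSL24D1, chr15:55196942-55197191, minus strand: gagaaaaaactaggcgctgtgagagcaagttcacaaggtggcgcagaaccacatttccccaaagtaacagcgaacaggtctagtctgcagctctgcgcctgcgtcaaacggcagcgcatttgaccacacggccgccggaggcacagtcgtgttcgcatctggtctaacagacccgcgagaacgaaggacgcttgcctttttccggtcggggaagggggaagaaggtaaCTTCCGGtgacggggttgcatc
NPM1, chr5:171387599-171387848, plus strand: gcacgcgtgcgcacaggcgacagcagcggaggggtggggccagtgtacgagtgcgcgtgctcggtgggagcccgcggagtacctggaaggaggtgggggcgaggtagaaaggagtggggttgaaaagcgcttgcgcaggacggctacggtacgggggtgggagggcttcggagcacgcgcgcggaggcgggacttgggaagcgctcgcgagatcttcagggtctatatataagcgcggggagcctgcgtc
The RSL24D1 stretch holds 1 ETS core, read on the opposite strand close to the start. The NPM1 stretch holds none of the 3 motifs, which says only that these letters are not in this window.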

How the data were processed

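Poly(A)+ RNA of 3 siNT and 3 siPAX9 samples was sequenced as single-end reads. Per the labels and the study's methods, the authors used Bowtie 2 (hg19) and Cufflinks in Partek Flow; how libraries were scaled is not given in the sources used here. The deposited values are 1 FPKM per group and locus, pooled by the authors, at 41656 loci. The table gives no counts, and the reads per library that the study's methods state were not used, so no precision was computed. Its other columns hold the authors' fold changes, p-values, q-values and test status; these hold the study's findings and no result uses them, and the status served only as a filter in an alternative. From the FPKM, log2 ratios of siPAX9 to siNT were computed without a test, and the background was named loci with a mean FPKM of at least 1. A call was a fold of at least 2. The script was tested on simulated data.

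Short loci without a symbol were compared with GENCODE 44 coding sequences (GRCh37) by blastn 2.17.0, with a word size of 28. Python 3.11.15, numpy 2.4.6, pandas 2.3.3, pysam 0.24.0, samtools 1.23.1 and matplotlib 3.10.9 were used. Members and lists were chosen with earlier results of these data known. Values were given by rule for the most changed, highest, lowest and higher members and for small complexes; WDR18, NIFK, GLTSCR2, ISG20L2, EIF6, SBDS, RPL24, EPCAM, TP63, CDH1, NOB1, the NPM1 copy and the remaining members were named with their values already seen. The alternatives are given in the closing section.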

Additional observations from a re-analysis of the deposited data

How the results depend on the processing

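The count of 3 genes at least 2-fold lower stayed at 3 with 1 FPKM added (4.89% of all named loci) and after centring (6.11%). At loci of 1 symbol it was 3 of 48 genes, beside 6.97% of such named loci. The 3 genes all sit at loci of 1 symbol, so that setting could not lower the count. A mean FPKM of at least 5, no minimum, summed loci and loci marked OK left the members and their values untouched and so tested nothing about them; the share of all named loci was 5.69% with a mean of at least 5, 8.20% with no minimum and 6.63% at loci marked OK. The count was 9 at 1.5-fold (16.7% of all named loci), and 3 of the 9 lie outside 14 members that match loci without a symbol. At 4-fold the count was 0, beside about 1.5% of all named loci. Without those 14 members, an alternative chosen after seeing the data, it was 1 of 40 (NLE1) at 2-fold, beside 6.91% of all named loci. The median log2 change of -0.39 became -0.37 with 1 FPKM added, -0.32 after centring on the median of named loci, -0.34 at loci of 1 symbol and -0.26 without those 14 members. Lower in siPAX9 were 49 of 54, and 45 after centring, where DDX31, EBNA1BP2, RRP1B and SDAD1 changed sign and 49.9% of all named loci were below 0. No paired analysis was possible because the table holds 1 pooled value per group, and for the same reason no sample could be left out. The pooled values hold no spread between samples, so they do not say which small changes exceed it.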
